A study of Mus musculus with 7 samples.

Results

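Vcam1 RNA was examined in glia that carry Prm1 transcripts, in the ventricular-subventricular zone (V-SVZ) of 31 to 33 day old mice that had lost Prdm16 alone or Prdm16 together with Vcam1. Single-cell RNA sequencing of dissected V-SVZ gave 7 libraries, and each library pooled 2 to 3 mice, per the study's methods of both sexes. Controls (3 libraries) were Prdm16 flox/flox without Cre. Prdm16 cKO mice (3 libraries) were hGFAP-Cre+/-; Prdm16 flox/flox, and Prdm16-Vcam1 DKO mice (1 library) were hGFAP-Cre+/-; Prdm16 flox/flox; Vcam1 flox/flox, so that all 7 libraries carried floxed Prdm16 and only the DKO carried floxed Vcam1. In hGFAP-Cre mice a human GFAP promoter drives Cre recombinase in radial glia from mid-gestation, in their progeny and in astrocytes, whereas endothelial cells and microglia arise elsewhere.

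A cell was called Prm1-marked when it had 500 to 7000 detected genes, at most 10% mitochondrial unique molecular identifiers (UMIs, a tally of captured RNA molecules), at least 3 Prm1 UMIs, at least 2 Slc1a3 UMIs, none of the ependymal genes Ccdc153 and Tmem212, none of the division genes Top2a and Mki67, no Mog and at most 1 Dcx. There were 427 such cells among 43346 that passed the first filters in all libraries. Of these, 82, 74 and 196 came from cKO libraries 1, 2 and 3 and 75 from the DKO library, and controls held 0. Prm1 encodes protamine 1, a sperm chromatin protein that brain cells do not make, and Prm1 sequence is used as the 3′ end of many Cre transgenes. The 3 control libraries held 26 Prm1 UMIs in all their barcodes together, and 14 of the 21952 control cells that passed the filters had a Prm1 UMI. In the gate without the Prm1 condition, 7.01%, 24.2% and 26.0% of glia were marked in cKO libraries 1, 2 and 3, and 9.03% (95% exact binomial interval, 7.17 to 11.2%) in the DKO library. Just inside the threshold, 22, 16 and 44 cKO cells and 20 DKO cells had exactly 3 Prm1 UMIs, and just outside it 50, 30 and 77 cKO cells and 51 DKO cells had 2. Slc1a3, the glial glutamate transporter GLAST, had a median of 21, 53 and 32 UMIs in cKO marked cells and 34 in DKO marked cells, so few cells sat at its threshold (0, 2 and 1 in cKO, 2 in DKO).

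VCAM1 is a cell surface adhesion protein of the immunoglobulin superfamily that binds integrins on neighboring cells. In the V-SVZ it is known from the apical endfeet of neural stem cells (NSCs), where it holds them at the ventricular surface and helps to keep them quiescent, and it is also made by activated endothelium. PRDM16 is a zinc finger transcriptional regulator of radial glia. V-SVZ glia include type B NSCs, of which Thbs4 is a marker, and parenchymal astrocytes, of which Agt is a marker. Both express Slc1a3, and stem cells that leave quiescence raise Egfr and cell cycle genes before they divide.

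The marked cells of cKO libraries 1, 2 and 3 summed to 762865, 1307127 and 2563146 UMIs and those of the DKO library to 1052285, with medians per cell of 7271, 16652.5 and 12489 in cKO and 12711 in DKO. The median mitochondrial share was 6.17%, 5.54% and 4.42% in cKO and 3.48% in DKO, lowest in the DKO library. The libraries differed in Xist. This gene, the RNA of the inactive X chromosome in female cells, was detected in 79 of 82 and 118 of 196 marked cells of cKO libraries 1 and 3, but with 1 UMI in cKO library 2 and 0 in the DKO library. Over all cells Xist was found in 0.41% of DKO, 0.59% of cKO library 2 and 0.31% of control library 1 cells against 39.7% to 63.1% in the other 4 libraries, which goes against pools of both sexes in those 3. Comparison of the DKO library with cKO library 2 alone is therefore given where it bears on a result. The DKO library, cKO library 3 and control library 3 shared 217 to 235 barcodes a pair, the other 4 libraries 103 to 211 a pair, and pairs across these blocks 7 to 42, which are also the blocks of the Cell Ranger versions named in the file headers. Only cKO library 3 thus stood in the block of the DKO library, and no barcode was marked in both libraries of a pair. Because the DKO group is 1 library, edgeR's quasi-likelihood test assumes that it varies like the cKO libraries, and an exact permutation test of 1 library against 3 cannot give a p below 0.25. Intervals on sums and shares cover counting error only.

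Vcam1 (ENSMUSG00000027962, chr3:116109949-116129688, minus strand, GRCm38) was 9.56-fold scarcer in DKO than in cKO marked glia. Summed over marked cells, cKO libraries 1, 2 and 3 had 189, 246 and 536 Vcam1 UMIs, which is 248, 188 and 209 CPM (the counts-per-million scale, of all UMIs of those cells, without further scaling). The DKO library had 24, or 22.8 CPM (95% Poisson interval, 14.6 to 33.9). The DKO library was low and the 3 cKO libraries were high, with no overlap. After TMM scaling, which corrects library totals for differences in composition, the cKO mean was 216 ± 26.8 CPM (SD, n = 3) and the DKO value 22.5 CPM, a log2 fold change of -3.25 ± 0.30 (SE). Since Vcam1 loss was the reason for the comparison, no p is given for it. Sums alone cannot tell fewer expressing cells from less RNA per cell. Vcam1 UMIs were found in 79.3%, 83.8% and 87.8% of cKO marked cells and in 11 of 75 DKO marked cells (14.7%, interval 7.56 to 24.7%), and the highest DKO cell held 25.0% of the DKO UMIs. With cells thinned to 4000 UMIs, which left out 4, 4 and 6 shallower cells of cKO libraries 1, 2 and 3 and 0 of the DKO library, the shares were 64.1%, 52.9% and 55.8% in cKO and 6.67% in DKO. In DKO cells that should lack Vcam1, a UMI was found in 1.89% of Mog-positive oligodendrocytes (median 16506.5 UMIs per cell) and in 0.996% of Dcx-positive neuroblasts (median 8228).

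In the DKO library the summed Vcam1 CPM was lower in each higher class of Prm1 count, an order that no cKO library had. The shares of thinned DKO cells with a Vcam1 UMI, given at the end of this paragraph, had no such steady order. In DKO glia with 0, 1 and 2 Prm1 UMIs, Vcam1 stood at 123, 95.1 and 87.1 CPM, and with 3 to 5 and 6 or more Prm1 UMIs at 36.9 and 9.32 CPM. The highest of these classes rested on 5 UMIs in 35 cells (interval 3.03 to 21.7 CPM). Across the same classes cKO values ran from 169 to 320 CPM, and glia of controls, none of which were marked, stood at 206, 170 and 163 CPM. DKO glia without any Prm1 UMI were thus also below all 6 other libraries, whose Prm1-negative glia ran from 163 to 225 CPM, although by less than the marked cells. The depth of DKO glia rose with the Prm1 class as well, from a median of 7758.5 UMIs per cell at 0 to 13070 at 6 or more, and the part that depth has in the trend was not tested beyond the thinned shares, which were 32.6%, 38.5%, 27.1% and 6.67% at 0, 1, 2 and at least 3 Prm1 UMIs and left out 137, 19, 3 and 0 shallower cells.

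**Figure D1:**
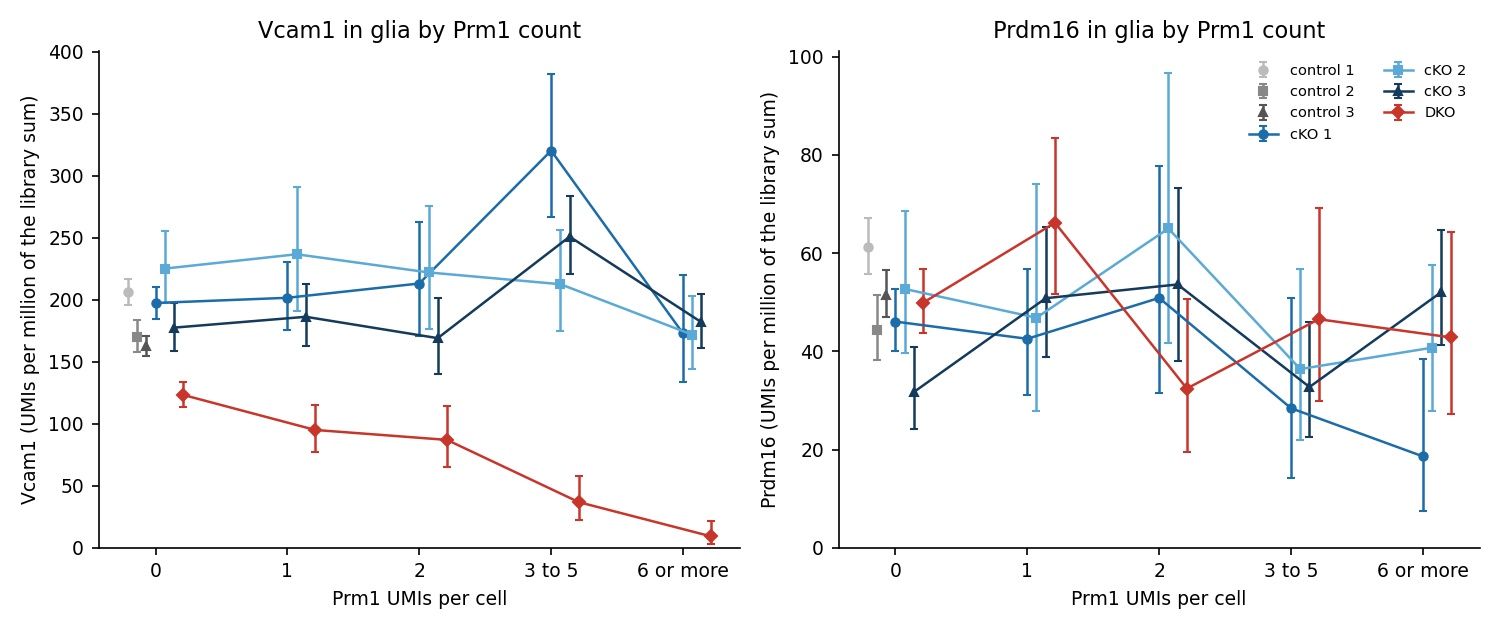
Vcam1 (left) and Prdm16 (right) in glia of each library, in CPM of the summed cells (vertical axis, linear from 0), by the number of Prm1 UMIs in the cell (horizontal axis). Points are libraries and bars 95% Poisson intervals; controls are shown at 0 Prm1 UMIs only. Vcam1 in the DKO library goes from 123 CPM at 0 to 9.32 CPM at 6 or more Prm1 UMIs, below every cKO library in each class, whereas Prdm16 has no such separation.

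The remaining DKO Vcam1 RNA was unevenly spread over the marked cells. Cells with at least 2 Thbs4 UMIs were taken as Thbs4-positive, and cells with at least 2 Agt UMIs and no Thbs4 as Agt-positive, Thbs4-negative. In marked Agt-positive, Thbs4-negative cells the DKO library had 4 Vcam1 UMIs in 37 cells, or 8.46 CPM (interval 2.31 to 21.7), against 271, 233 and 230 CPM in cKO. In Thbs4-positive cells the DKO library had 13 UMIs in 12 cells, or 80.3 CPM (interval 42.8 to 137), against 189, 131 and 216 CPM in 7, 6 and 10 cKO cells. The interval of the DKO library there overlapped those of cKO libraries 1 and 2 but not that of cKO library 3. In marked cells of neither kind, the DKO library had 16.8 CPM and the cKO libraries 213, 102 and 140 CPM. Among glia without a Prm1 UMI, Agt-positive, Thbs4-negative cells had 74.8 CPM in DKO against 346, 358 and 318 CPM in cKO, and Thbs4-positive cells 125 CPM in DKO against 151 CPM in cKO library 1, the only cKO library with more than 4 such cells. Cells of neither kind without a Prm1 UMI had 130 CPM in DKO against 203, 133 and 94.8 CPM in cKO, so that the DKO library was inside the cKO range there. Outside glia, Vcam1 in endothelial cells, which hGFAP-Cre does not target, was 32.6 CPM in DKO, 55.5, 292 and 51.2 CPM in cKO and 141, 42.4 and 62.6 CPM in controls. The endothelial values spread widely among libraries of 1 genotype, with the DKO library lowest.

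Prdm16 (ENSMUSG00000039410, chr4:154316125-154636873, minus strand) RNA did not separate DKO from cKO marked glia. It stood at 23.6, 39.0 and 44.5 CPM without TMM scaling in cKO and 44.7 CPM in DKO marked cells, against 61.3, 44.4 and 51.6 CPM in control glia. With TMM scaling the marked cells had 23.0, 38.9 and 46.3 CPM in cKO and 44.2 CPM in DKO, inside the cKO range, and cKO library 1 was lowest on both scales. The TMM-scaled log2 fold change was 0.21 ± 0.33. Libraries were counted from the 3′ ends of transcripts, and the sources used here do not place the floxed exons, so a transcript that lacks them can still be counted and these values do not show whether Prdm16 was deleted. The same limit holds for the Vcam1 UMIs that remained in DKO cells.

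Marked DKO glia held a smaller share of Agt-positive, Thbs4-negative and a larger share of Thbs4-positive cells than marked cKO glia. Agt-positive, Thbs4-negative cells made up 63.4%, 62.2% and 70.9% of cKO and 49.3% (interval 37.6 to 61.1%) of DKO marked cells. Thbs4-positive cells made up 8.54%, 8.11% and 5.10% of cKO and 16% (interval 8.55 to 26.3%) of DKO marked cells. The DKO library lay outside the 3 cKO libraries on both measures, while its interval overlapped those of cKO libraries 1 and 2 for Agt and of all 3 cKO libraries for Thbs4. In control glia, which were gated without Prm1, 32.2%, 43.7% and 33.2% were Thbs4-positive and 1.85%, 3.53% and 2.15% Agt-positive, Thbs4-negative by the same limits. The marked cells were thus a different mix from control V-SVZ glia. Among glia without a Prm1 UMI, 29.2%, 2.52% and 0.617% in cKO libraries 1, 2 and 3 and 28.5% in DKO were Thbs4-positive. Agt-positive, Thbs4-negative cells made up 7.90%, 32.7% and 31.2% of these glia in cKO and 9.45% in DKO. In cKO libraries 2 and 3 the difference from controls was therefore not confined to marked cells.

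Across the transcriptome, few genes passed the test between DKO and cKO marked glia, which does not show that the others were equal. Of 10695 genes tested, edgeR called 5 after Benjamini-Hochberg adjustment of its quasi-likelihood p-values (0.0468%), 3 higher (0.0281%) and 2 lower (0.0187%) in DKO. The 5 include Vcam1, whose loss was the reason for the comparison, so its call is no independent evidence. The median log2 fold change of all genes was -0.01. At an unadjusted p under 0.05, 743 genes (6.95%) passed, 368 higher and 375 lower. DESeq2 called 6, 2 higher and 4 lower, of which Vcam1 and Ifi27l2a were also among the 5. Leaving out cKO library 1, 2 or 3 gave 144, 35 and 24 calls, each time with all 5 genes among them. With the Cell Ranger version of the library as a further term of the edgeR fit, which leaves 1 residual degree of freedom, 1 gene was called, Vcam1. By size alone, 69 genes (0.645%) in DKO were at least 1 log2 unit above the highest cKO library and 91 (0.851%) at least 1 below the lowest. Both directions together made 160 genes (1.5%). This rule is a cut on size and not a test, so the 160 are not genes shown to differ. Of the 5068 well expressed genes, whose log2 CPM averaged at least 5, 6 were that far above and 8 that far below.

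**Figure D2:**
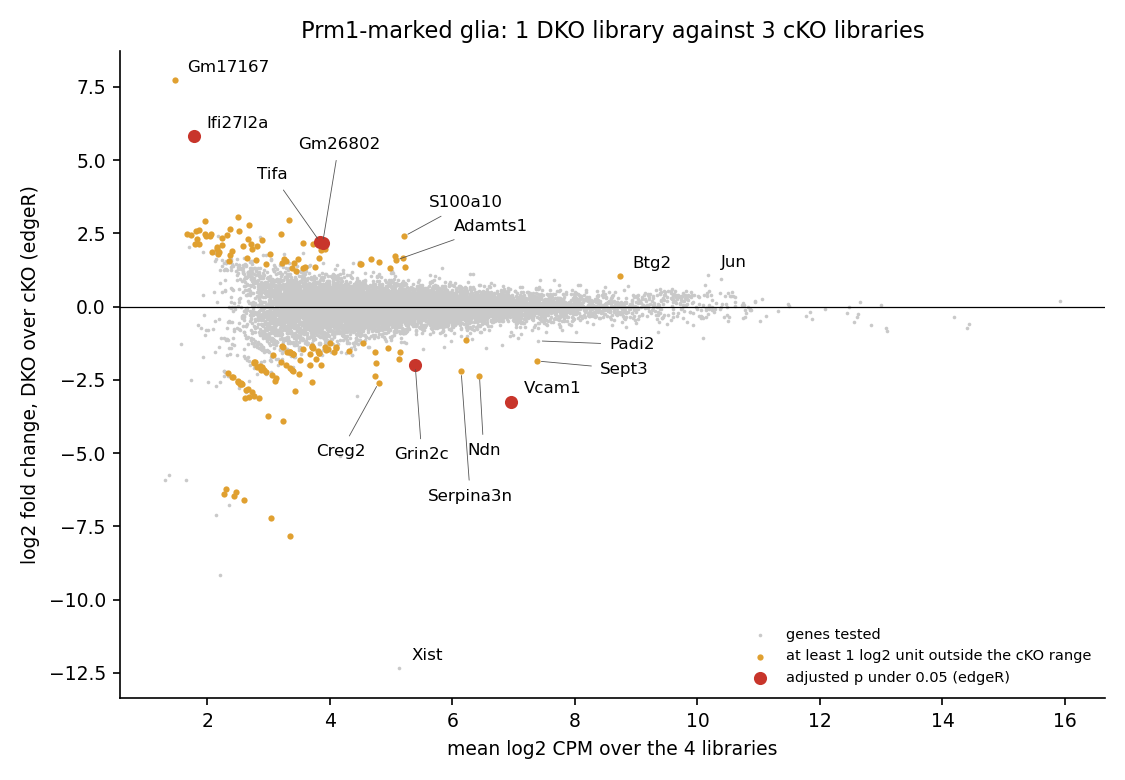
Log2 fold change of DKO over cKO marked glia (vertical axis, edgeR) against the mean log2 CPM of the 4 libraries (horizontal axis) for the 10695 genes tested; each point is a gene. Red points are the 5 genes called and orange points the 160 that lay at least 1 log2 unit outside the cKO range. Vcam1 lies at -3.25 and Xist, which is at 0 in the DKO library, at -12.35.

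Apart from Vcam1, the genes called were Grin2c, Tifa, Gm26802 and Ifi27l2a, of which Grin2c falls under the rule on the largest gaps and the other 3 fall outside it and were singled out after their values were seen. Grin2c (chr11:115249169-115267243), which encodes the GluN2C subunit of NMDA-type glutamate receptors and is known from astrocytes, had 61.3, 55.0 and 55.6 CPM in cKO and 14.1 CPM in DKO. It fell by 2.01 ± 0.34 on the log2 scale (SE, edgeR adjusted p = 0.0423), and 16% of DKO cells had a UMI against 30.5%, 36.5% and 31.1% of cKO cells. The 3 cKO libraries lay close together and the DKO library far below. Its DESeq2 adjusted p was 0.310, its edgeR adjusted p was 0.186 with the Cell Ranger version as a term, and edgeR no longer called it without possible doublets.

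Tifa (chr3:127789805-127832164), an adaptor that links TRAF proteins to NF-κB signaling, had 8.94, 9.92 and 7.31 CPM in cKO and 39.5 CPM in DKO. It rose by 2.21 ± 0.38 on the log2 scale (edgeR adjusted p = 0.0423), in 27 of 75 DKO cells against 8.54%, 13.5% and 7.65% of cKO cells. Gm26802 (chr7:19298260-19300770), annotated as a lincRNA, had 10.2, 6.11 and 11 CPM in cKO and 42.3 CPM in DKO and rose by 2.18 ± 0.38 (edgeR adjusted p = 0.0423), in 28% of DKO cells against 6.1%, 2.70% and 7.65%. For both genes the DKO library stood apart and above the cKO libraries, yet DESeq2 gave adjusted p of 1.00 and 0.994, and edgeR with the Cell Ranger version as a term 0.186 and 0.479. Ifi27l2a, an interferon-inducible gene (chr12:103442167-103443680), had 0, 0 and 2 UMIs in cKO and 31 in DKO marked cells (edgeR adjusted p = 0.0234, or 0.317 with the Cell Ranger version as a term). A single DKO cell held 93.5% of those UMIs, so the value in marked glia describes 1 cell.

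Among the well expressed genes whose DKO value lay farthest above the cKO range, S100a10 had the largest gap. This gene encodes p11, the partner of annexin A2, and had 43.4, 13.7 and 20.7 CPM in cKO and 125 CPM in DKO, 4.81 times the cKO mean of 26.0 ± 15.5 CPM (SD, n = 3; log2 fold change 2.40 ± 0.43, edgeR adjusted p = 0.252). It was found in 54.7% of DKO cells and in 15.9%, 16.2% and 14.3% of cKO cells, so the groups did not overlap on either measure. S100a10 (chr3:93555080-93564643) and the related S100a11 (chr3:93520488-93526287) lie on the chromosome of Vcam1. S100a11 had 29.4, 13.0 and 41.4 CPM in cKO and 92.1 CPM in DKO. Adamts1, a secreted protease, had 16.6, 22.1 and 35.7 CPM in cKO and 80.8 CPM in DKO, with 31.4% of the DKO UMIs from 1 cell. The chaperone gene Hspa1a had 34.5, 29.8 and 22.7 CPM in cKO and 70.5 CPM in DKO, although 17.3% of DKO cells had a UMI, inside the cKO range of 12.2% to 23.0%. Its near-identical copy Hspa1b, with which reads can be confused, had 10.2, 36.6 and 9.34 CPM in cKO and 23.5 CPM in DKO, inside the cKO range.

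Further genes with a large gap above the cKO range were not of 1 kind. Btg2, an antiproliferative immediate early gene of neural progenitors, had 352, 348 and 364 CPM in cKO and 730 CPM in DKO (log2 fold change 1.04 ± 0.22, edgeR adjusted p = 0.104). Jun, a subunit of the AP-1 transcription factor, had 1152, 708 and 1065 CPM in cKO and 2039 CPM in DKO and was found in 94.7% of DKO cells against 80.5%, 85.1% and 82.1%. Ezh2, the methyltransferase of Polycomb repressive complex 2, had 21.7, 29.0 and 24.4 CPM in cKO and 56.4 CPM in DKO. For all of these genes the DKO library was the highest of the 4. The remaining genes of the upper 12 were Fam210b (42.1, 41.2 and 44.7 CPM in cKO, 88.3 in DKO), Vcan (26.8, 17.6 and 31.3 against 60.1), Otud1 (17.9, 32.8 and 27.2 against 59.2), Paxbp1 (42.1, 40.5 and 46.3 against 81.7) and Olig1, which is taken up with the oligodendrocyte lineage markers. None of the 12 genes in this upper group had an edgeR adjusted p under 0.05.

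Of the 12 well expressed genes with the largest gap below the cKO range, Vcam1 came first and Grin2c second. Ndn, an imprinted gene for the growth suppressor necdin, had 166, 89.3 and 139 CPM in cKO and 25.4 CPM in DKO, 5.19-fold lower than the cKO mean of 132 ± 38.9 CPM (SD, n = 3; log2 fold change -2.35 ± 0.40, edgeR adjusted p = 0.104). It was found in 17.3% of DKO cells and in 70.7%, 43.2% and 73.0% of cKO cells. Serpina3n, a secreted serine protease inhibitor known from reactive astrocytes, had 58.7, 124 and 132 CPM in cKO and 23.5 CPM in DKO (edgeR adjusted p = 0.555). For both genes the cKO libraries spread widely, and the DKO library was below each of them.

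The other genes of the lower 12 were chosen for their gap in the same way. The lactate transporter gene Slc16a1 had 51.1, 38.2 and 45.5 CPM in cKO and 15.0 CPM in DKO. The cationic amino acid transporter gene Slc7a2 had 86.8, 89.3 and 90.1 CPM in cKO and 40.4 CPM in DKO. The GABA-A receptor subunit gene Gabrg1 had 56.2, 38.2 and 43.0 CPM in cKO and 18.8 CPM in DKO. Each of these was lower in DKO than in every cKO library, with edgeR adjusted p of 0.161, 0.155 and 0.406. Thrsp, a regulator of lipogenesis, had 135, 139 and 88.5 CPM in cKO and 44.2 CPM in DKO, and Padi2, a peptidylarginine deiminase, 238, 183 and 198 CPM in cKO and 91.1 CPM in DKO. The stress-response gene Nupr1 had 39.6, 32.8 and 67.8 CPM in cKO and 14.1 CPM in DKO, and the septin gene Sept3 137, 332 and 248 CPM in cKO and 66.7 CPM in DKO. Snhg9, a small nucleolar RNA host gene annotated as antisense, had 89.4, 49.6 and 42.6 CPM in cKO and 20.7 CPM in DKO, and reads of the opposite strand could count toward it if strand was not used.

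**Figure D3:**
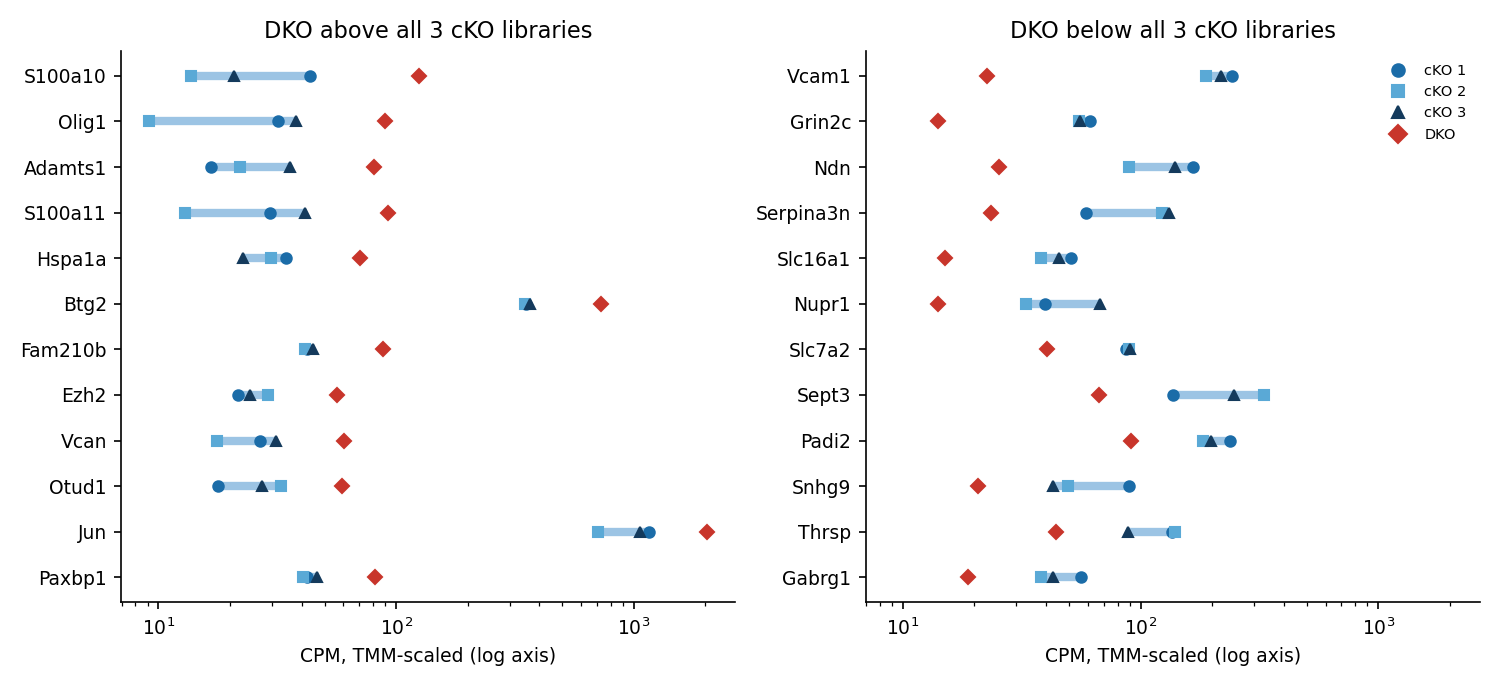
TMM-scaled CPM in marked glia (horizontal log axis) of the 12 well expressed genes with the largest gap of the DKO library above (left) and below (right) the cKO range. Points are libraries and the light bar spans the 3 cKO libraries; the DKO point lies outside the bar for every gene shown because the genes were chosen for that, and S100a10, for example, lies at 125 CPM against at most 43.4 in cKO.

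Several of these differences were not confined to marked glia. The same genes were examined in glia with no Prm1 UMI, in Dcx-positive neuroblasts, in Mog-positive oligodendrocytes, in Cldn5-positive endothelial cells and in Csf1r-positive microglia, each summed per library without further scaling, and the DKO library was set against the 6 other libraries. S100a10 was above all 6 in unmarked glia (90.2 CPM against 6.69 to 32.6), neuroblasts (382 against 58.9 to 124), oligodendrocytes (42.0 against 1.60 to 25.9) and endothelial cells (107 against 35.3 to 73.6), and inside their range in microglia (19.4 against 13.9 to 65.9). Paxbp1, which encodes a binding partner of PAX transcription factors, was above all 6 in every kind of cell examined: unmarked glia (83.5 CPM against 42.2 to 65.2), neuroblasts (129 against 60.9 to 95.1), oligodendrocytes (62.9 against 29.3 to 42.8), endothelial cells (52.8 against 28.8 to 48.5) and microglia (69.9 against 28.9 to 54.6). Ndn was below all 6 in unmarked glia (50.8 CPM against 63.3 to 187), neuroblasts (56.4 against 87.2 to 184) and oligodendrocytes (28.2 against 36.7 to 134). Serpina3n was below all 6 in unmarked glia (3.70 CPM against 36.1 to 78.4), oligodendrocytes (0.542 against 7.33 to 22.3) and endothelial cells (0 against 0.720 to 2.72), and inside their range, at 0.0866 CPM or less, in neuroblasts and microglia. In endothelial cells Ndn was inside the range of the others. Since oligodendrocytes carried 1.2 to 9.30 CPM of Prm1 in the Cre libraries, these 4 genes set the DKO library apart also in cells with little Prm1, and the effect of genotype and that of 1 library cannot be told apart.

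Other named genes lay outside the range of the 6 libraries in some of these cells, with mixed directions. The share of all genes outside that range in these cells was not determined, here or for the genes above. In unmarked glia the DKO library was also below the 6 others for Padi2 (25.5 CPM against 38.3 to 71.9), Sept3 (47.3 against 95.0 to 124), Creg2 (4.58 against 10.2 to 14.8), Tgfb2 (41.0 against 52.6 to 67.9), Snhg9 (22.2 against 24.1 to 88.9) and Grin2c (50.1 against 63.9 to 90.1), and above them for Tifa (22.2 against 10.1 to 18), Gm26802 (37.0 against 4.76 to 24.8), Ifi27l2a (8.72 against 0.435 to 6.87), Ezh2 (58.2 against 27.8 to 46.3) and Fam210b (72.8 against 32.6 to 71.1). Ezh2 was above them in endothelial cells (33.6 CPM against 14 to 24.3) and oligodendrocytes (62.5 against 37.3 to 55.3) as well. Tgfb2 was below them in endothelial cells too (142 CPM against 155 to 239). Grin2c was also the lowest in neuroblasts, oligodendrocytes and endothelial cells, where no library exceeded 1.96 CPM. Padi2 was inside the range of the others in oligodendrocytes, at 73.8 CPM against 48.5 to 74.7. Btg2 was inside it in unmarked glia (292 CPM against 269 to 520) and below it in endothelial cells (346 against 516 to 1344) and neuroblasts (103 against 106 to 140). Ifi27l2a was above it in oligodendrocytes (4.34 CPM against 0 to 2.66). Prdm16 was above it in endothelial cells (43.2 CPM against 17.2 to 31.1) and oligodendrocytes (2.03 against 0 to 1.2), S100a11 in neuroblasts (33.5 against 6.05 to 14.5) and oligodendrocytes (14.1 against 0.799 to 11.8), and Jun in oligodendrocytes (657 against 379 to 631). Tifa was above it in microglia (175 CPM against 64.0 to 107) and below it in endothelial cells (7.44 against 9.51 to 26.9). Slc7a2, Nupr1 and Adamts1 were inside the range in unmarked glia, but Slc7a2 was below it in endothelial cells (5.31 CPM against 10.4 to 16.8), oligodendrocytes (0.677 against 0.960 to 2.67) and neuroblasts (2.60 against 3.02 to 4.95). Slc16a1 was below the range in endothelial cells (388 CPM against 516 to 825) and microglia (3.88 against 12.4 to 132). It was inside the range in unmarked glia (33.6 CPM against 28.5 to 70.8), oligodendrocytes and neuroblasts. Thrsp was below the range in oligodendrocytes (5.42 CPM against 12.8 to 33.3) and neuroblasts (2.17 against 3.96 to 14.5). It was inside the range in unmarked glia (57.3 CPM against 45.1 to 204), endothelial cells and microglia. Whether a difference in marked cells exceeded that in unmarked cells was not tested.

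**Figure D4:**
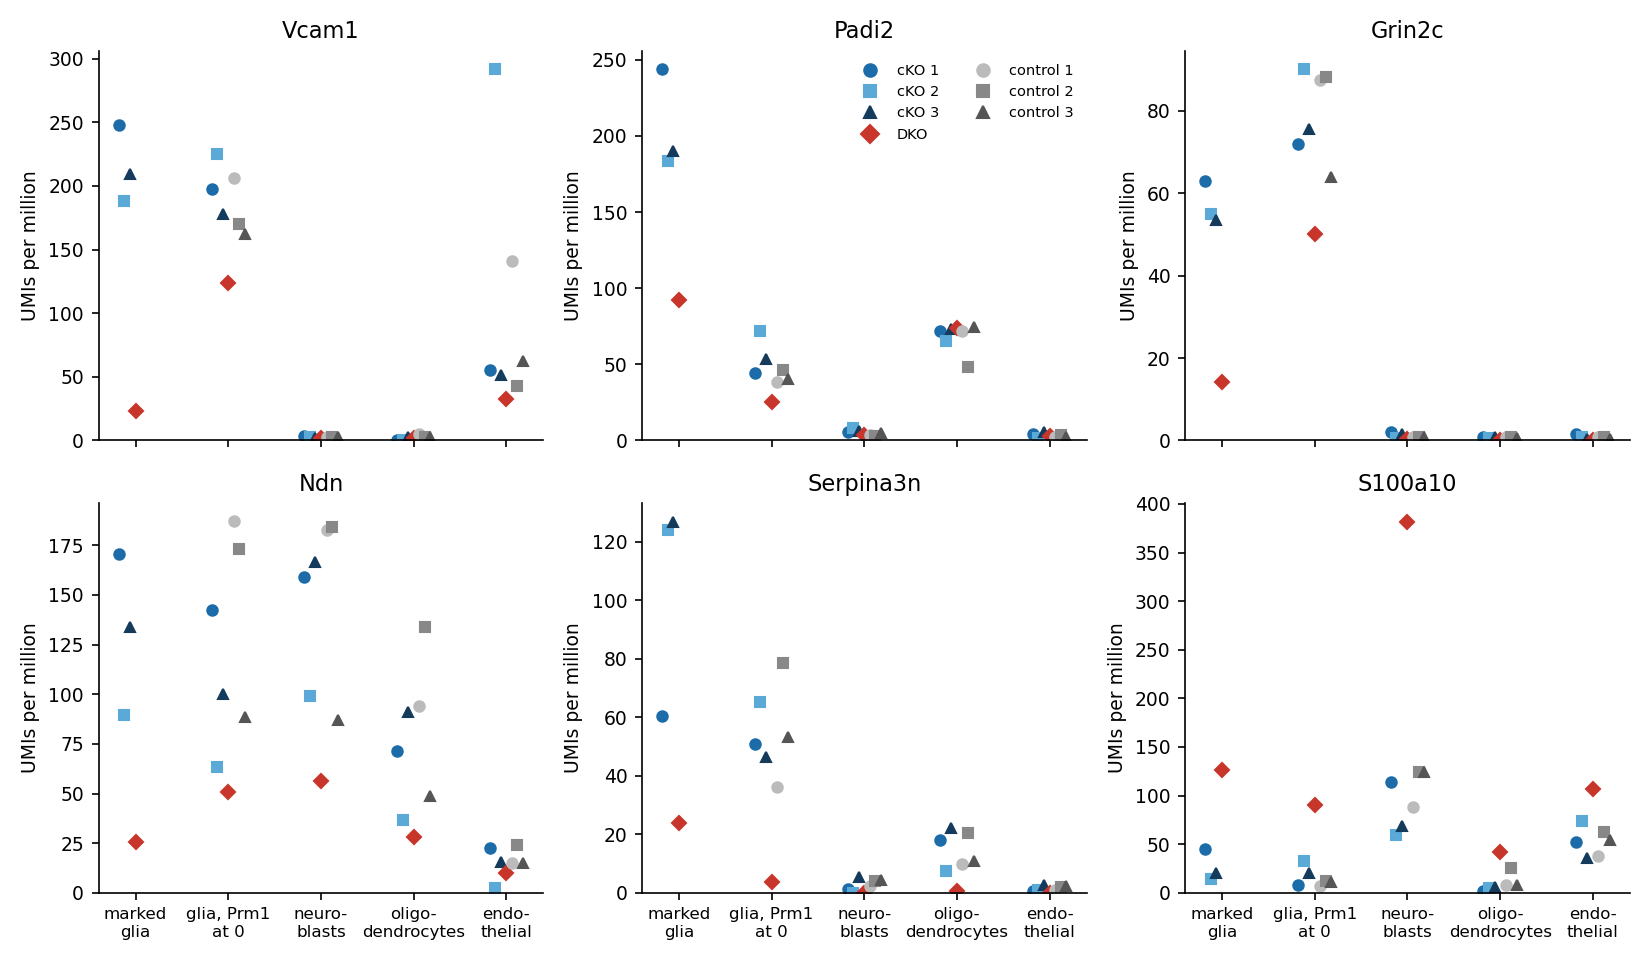
Vcam1, Padi2, Grin2c, Ndn, Serpina3n and S100a10 in 5 kinds of cells (horizontal axis), in CPM of the summed cells of a library (vertical axis, linear from 0). Each point is a library, with controls absent from marked glia, where they have no cells. S100a10 in the DKO library lies above all other libraries in each kind of cell shown (microglia, where it is inside their range, are not drawn), and Vcam1 in DKO marked glia is 22.8 CPM against at least 188 CPM in cKO.

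Genes of activated NSCs were mostly higher in DKO marked glia. Of 22 list members 21 were tested, and 17 lay above and 1 below all 3 cKO libraries, where 27.8% of all genes lay above and 27.8% below. The median log2 fold change was 0.62, and no member passed edgeR. Sox4, a progenitor transcription factor, had 119, 228 and 183 CPM in cKO and 334 CPM in DKO. The replication helicase subunit gene Mcm6 had 6.38, 13.7 and 21.5 CPM in cKO and 32.9 CPM in DKO, and Gsx2, a ventral patterning factor, had 15.3, 12.2 and 12.2 CPM in cKO and 23.5 CPM in DKO. In each of these the DKO library was above all 3 cKO libraries. The cyclin gene Ccnd2 had 461, 541 and 452 CPM in cKO and 644 CPM in DKO. Egfr was inside the cKO range, at 101, 183 and 145 CPM in cKO and 128 CPM in DKO, and Dlx2, a neuroblast lineage factor, was below it, at 10.2, 9.92 and 9.34 CPM in cKO and 3.76 CPM in DKO.

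Genes of parenchymal astrocytes were mostly lower. Of 20 members, all tested, 18 lay below and 0 above all 3 cKO libraries, where 27.8% of all genes lay below and 27.8% above. The median log2 fold change was -0.36, and no member passed edgeR. Fgfr3, a fibroblast growth factor receptor, had 151, 142 and 152 CPM in cKO and 76.1 CPM in DKO (log2 fold change -0.96 ± 0.22, edgeR adjusted p = 0.161). Agt, which encodes angiotensinogen, had 598, 823 and 882 CPM in cKO and 420 CPM in DKO. The potassium channel gene Kcnj10 had 212, 265 and 250 CPM in cKO and 150 CPM in DKO, and the water channel gene Aqp4 438, 525 and 583 CPM in cKO and 316 CPM in DKO. All 4 were lowest in the DKO library. The smaller share of Agt-positive cells in DKO moved with this list. Within Agt-positive, Thbs4-negative cells, 13 of 20 astrocyte members were below and 1 above the cKO libraries (median -0.29), where 30.0% of all genes were below. In the same cells 7 of 14 activated NSC members were above (median 0.34), where 29.0% of all genes were above. Against cKO library 2 alone, 17 of 21 activated members were higher and 19 of 20 astrocyte members lower in DKO, where 49.8% and 50.2% of all genes were. In unmarked glia the medians of the activated and astrocyte lists were 0.06 and -0.14.

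Genes of quiescent NSCs had no common direction in marked glia. All 26 members were tested, and 5 lay above, 7 below and 14 inside the cKO range, with a median log2 fold change of -0.04. Of all genes, 27.8% lay above and 27.8% below. Hes1, a Notch effector, had 115, 100 and 84.9 CPM in cKO and 162 CPM in DKO, and Sox2 557, 560 and 550 CPM in cKO and 742 CPM in DKO. Gfap had 732, 977 and 1127 CPM in cKO and 717 CPM in DKO, and Id3, an inhibitor of differentiation induced by BMP, 1461, 1436 and 1527 CPM in cKO and 1155 CPM in DKO. Thbs4 itself varied more among cKO libraries, at 114, 29.8 and 16.2 CPM, than between them and the DKO library at 94.9 CPM. Of the 20 embryonic radial glia genes tested (of 26), 8 were above and 3 below, with a median of 0.21. In unmarked glia the medians of the quiescent and radial glia lists were 0.33 and 0.37. Ptprz1 had 1299, 1463 and 1422 CPM in cKO and 1784 CPM in DKO, while Tnc, the tenascin C of the stem cell matrix, had 24.3, 40.5 and 47.9 CPM in cKO and 17.8 CPM in DKO.

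Immediate early genes, which respond within minutes to stimulation and to tissue dissociation, were mostly higher in DKO. Of 22 members, all tested, 15 were above and 0 below all 3 cKO libraries, where 27.8% of all genes were above and 27.8% below. By at least 1 log2 unit 4 were above, where 0.645% of all genes were, and the median was 0.72. None passed edgeR. Btg2 stands on this list and on the activated NSC list. Egr2 had 7.66, 4.58 and 8.93 CPM in cKO and 32.9 CPM in DKO (edgeR adjusted p = 0.101), Fos 1376, 841 and 1223 CPM in cKO and 2208 CPM in DKO, and Egr1 465, 388 and 393 CPM in cKO and 673 CPM in DKO. The DKO library was highest for each. Atf3, by contrast, was inside the cKO range at 99.6, 33.6 and 42.6 CPM against 47.9 CPM. In Agt-positive, Thbs4-negative cells the list median was 1.19 and in Thbs4-positive cells -0.38, and in unmarked glia it was -0.25. The direction of this list thus differed between kinds of glia of the same libraries, and the difference was not tested. Heat shock genes had 4 of 11 above and 0 below, with a median of 0.27.

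Cytosolic ribosomal protein genes were higher by a small and even amount. Of 80 tested (of 83), 70 were above and 0 below the cKO range, with a median of 0.36 and none at least 1 log2 unit outside it. Of all genes, against which the counts of the next lists also stand, 27.8% were above and 27.8% below. In unmarked glia the median was nearly the same, at 0.34. Against cKO library 2 alone the median was 0.18, with 71 higher. Mitochondrially encoded genes had 11 of 13 below and 2 above, with a median of -0.42, beside the lower mitochondrial share of DKO cells given above, and the median in unmarked glia was -0.39. With cells limited to 5% mitochondrial UMIs, 7 of the 13 were below and the median was -0.19. Of 77 nuclear genes of oxidative phosphorylation tested, 1 was above and 15 below. Their median of -0.05 was -0.17 without cKO library 1, 0.05 without cKO library 3 and -0.21 against cKO library 3 alone, so its sign depended on the libraries compared. Of 24 cholesterol synthesis genes 13 were below and 4 above, with a median of -0.23. Sqle, squalene epoxidase, had 114, 113 and 98.7 CPM in cKO and 75.2 CPM in DKO. None of these genes passed edgeR.

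**Figure D5:**
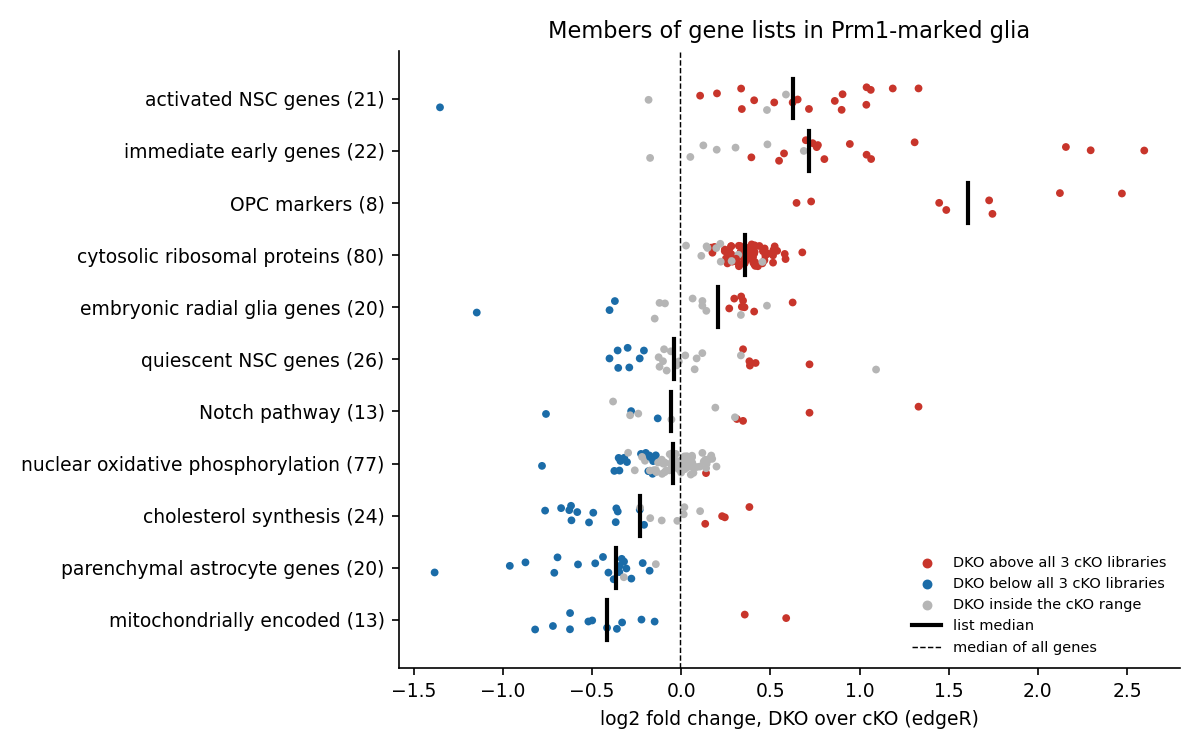
Log2 fold change of DKO over cKO marked glia (horizontal axis, edgeR) for the members of 11 gene lists, with the number tested in parentheses. Each point is a gene, red where the DKO library is above and blue where it is below all 3 cKO libraries, the black bar is the list median and the dashed line the median of all genes. The medians run from 1.61 for oligodendrocyte precursor markers to -0.42 for mitochondrially encoded genes.

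All 8 markers of oligodendrocyte precursor cells (OPCs) were above the cKO range, where 27.8% of all genes were. Their median log2 fold change was 1.61, and this rested on few cells. The median was 2.78 without cKO library 3, 1.21 without cKO library 2 and 0.77 against cKO library 3 alone. With possible doublets left out, among them cells with at least 2 Pdgfra UMIs, it was 0.055. In Agt-positive, Thbs4-negative cells it was 0.59. Pdgfra, the PDGF receptor of OPCs, had 1.28, 0 and 25.6 CPM in cKO and 69.5 CPM in DKO, and Olig1, an oligodendrocyte lineage factor, 31.9, 9.16 and 37.8 CPM in cKO and 90.2 CPM in DKO. Summed over the list, cKO libraries had 126, 67.3 and 192 CPM and the DKO library 384 CPM. Cells with at least 3 of the 8 markers numbered 1, 1 and 9 in cKO and 6 in DKO, and those 6 cells held 328 of the 404 OPC marker UMIs of DKO marked cells. Markers of other cell types lay inside or close to the cKO range. Summed endothelial markers had 28.8, 32.1 and 120 CPM in cKO and 48.5 CPM in DKO, oligodendrocyte markers 513, 518 and 1038 against 851, and microglial markers 56.4, 31.4 and 51.9 against 36.1, with Csf1r, Cx3cr1, C1qa and Tyrobp at 0 in DKO. Neuroblast markers had 52.4, 46.7 and 71.4 CPM in cKO and 75.1 CPM in DKO, neuron markers 731, 702 and 909 against 921, and blood markers 26.2, 95.6 and 228 against 233, in each case just above the highest cKO library. Mural cell markers (180, 70.4 and 152 against 83.6) and ependymal markers (451, 277 and 346 against 349) were inside the cKO range, and division markers were above it (14.4, 13.8 and 16.4 against 23.8). The part of these cells and of their free RNA in the values above was not tested.

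Genes that act with VCAM1 lay on both sides of the cKO range. Of 19 members 8 passed the filter on low counts, and 3 were above, 3 below and 2 inside the cKO range, where 27.8% of all genes were above and 27.8% below. The integrin subunit genes Itga6 (75.3, 85.5 and 83.2 CPM in cKO, 59.2 in DKO) and Itgav (33.2, 32.1 and 40.6 against 24.4) were below, as was Rac1, a GTPase of VCAM1 signaling (250, 270 and 227 against 194). Itgb1, the partner subunit of VLA-4, was above (71.5, 92.4 and 85.3 against 107), and so were the membrane linker Ezr (267, 237 and 212 against 298) and Cyba, an NADPH oxidase subunit (138, 127 and 155 against 171). Of 24 cell junction genes tested (of 26), 7 were above and 10 below (27.8% each way for all genes), with a median of -0.04, and N-cadherin, encoded by Cdh2, had 223, 209 and 213 CPM in cKO and 240 CPM in DKO.

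Members of signaling pathways lay on both sides of the cKO range, where 27.8% of all genes were above and 27.8% below. Of 13 Notch pathway genes tested (of 18), 4 were above and 3 below, with Hes1 and Dll1 above and Hey2 below (20.4, 29.0 and 25.6 CPM in cKO, 15.0 in DKO). Of 14 BMP and Id genes (of 23), 2 were above and 5 below, and Nog, the BMP antagonist noggin, had 15.3, 14.5 and 19.9 CPM in cKO and 5.64 CPM in DKO. Of 18 genes of the growth factor response (of 21), 7 were above and 4 below. Of 7 NF-κB targets (of 16), 1 was above and 4 below, with Nfkbia, the inhibitor of NF-κB, at 42.1, 57.3 and 54.4 CPM in cKO and 81.7 CPM in DKO. Of 20 reactive glia genes (of 27), 2 were above and 4 below, with S100a10 and Serpina3n at opposite ends. No member of these lists passed edgeR.

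Genes found higher in cKO than in control NSC-like cells of the same libraries were a list chosen on these samples, and so give no independent evidence of direction. Of 9 members 8 were tested, Gm26771 being filtered out, and 5 lay below, 1 above and 2 inside the cKO range. Of all genes, 27.8% lay below and 27.8% above. The list had a median of -0.51. The median was -0.29 without cKO library 1, -0.24 against cKO library 2 alone and -0.29 against cKO library 3 alone. Creg2, a secreted glycoprotein gene (chr1:39618406-39651474), had 56.2, 31.3 and 38.2 CPM in cKO and 6.58 CPM in DKO, 6.37-fold lower than the cKO mean (log2 fold change -2.60 ± 0.49, edgeR adjusted p = 0.101), and was found in 8.0% of DKO cells against 32.9%, 29.7% and 30.1%. Tgfb2, a quiescence-promoting growth factor, had 109, 110 and 86.1 CPM in cKO and 67.6 CPM in DKO, and Ucp2, a mitochondrial carrier, 90.7, 59.5 and 58.1 CPM in cKO and 47.0 CPM in DKO. Creg2 was far below the cKO libraries and the other 2 slightly below. Wnt5b (20.4, 10.7 and 11.8 against 9.39) and Gria1 (121, 48.9 and 56.8 against 47.0) were just below the cKO range. Ptx3 (243, 160 and 228 against 184) and Egfr were inside it, and Rgs17 was above it (21.7, 16.8 and 21.5 against 23.5).

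Genes near Vcam1 on chromosome 3 were examined as the flank of the floxed allele. Within 5 Mb of Vcam1, 21 other protein-coding genes were tested, of which 7 were above and 5 below the cKO range, near the 27.8% of all genes in each direction, and 1 was above by at least 1 log2 unit. Their median log2 fold change was 0.18 and their median absolute log2 fold change 0.42, against 0.27 for genes on all other chromosomes. Plppr5, a phospholipid phosphatase-related membrane protein, had 6.38, 3.82 and 8.12 CPM in cKO and 19.7 CPM in DKO, and Slc30a7, a zinc transporter, 16.6, 18.3 and 19.1 CPM in cKO and 8.45 CPM in DKO. Both were chosen here after their values were seen. Tifa lies 11.7 Mb and Slc16a1 11.5 Mb from Vcam1. At 5 to 20 Mb, 40 of 137 protein-coding genes were above and 36 below the cKO range, with a median log2 fold change of 0.00 and a median absolute one of 0.25. Beyond 20 Mb, 116 of 345 protein-coding genes of chromosome 3 were above and 86 below the cKO range, 5 above and 1 below by at least 1 log2 unit. Of 9787 protein-coding genes on all other chromosomes, 2703 were above and 2721 below. By at least 1 log2 unit, 56 of those 9787 were above and 76 below. The strain of the flanking segment is not given in the sources used here, and its part in these values was not tested.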

How the data were processed

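V-SVZ cells were sequenced with 10x Genomics 3′ v3.1 kits. The authors deposited, for each library, raw UMI counts per gene and barcode from Cell Ranger (mm10), without normalization; version 6.1.1 stands in the headers of the DKO library and of replicate 3 of both other groups, and version 6.0.1 in the rest. Gene positions came from the GENCODE vM21 annotation of GRCm38, which held 32158 of the features (99.6%). Groups came from the GEO labels.

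The members and gene lists were chosen with earlier results of these data known. Counts of marked cells were summed per library and compared with edgeR 4.0.16 (expression filter, TMM, robust quasi-likelihood test, R 4.3.3) between 3 cKO and 1 DKO library, with Benjamini-Hochberg adjustment at 0.05. The test was tried on simulated sums in which the DKO library varied like the cKO libraries. That assumption itself was therefore not tested. Each SE is the absolute log2 fold change divided by the square root of the F statistic of that test. It holds no spread among DKO libraries. A size rule asked for a log2 CPM (prior count 2) of the DKO library at least 1 outside the cKO range. Raw CPM is given for Prm1 classes, Thbs4 and Agt subsets, summed marker lists and other cell types, and where stated, and TMM-scaled CPM otherwise. Named were Vcam1, Prdm16, the genes earlier found raised in cKO, and, among genes averaging a log2 CPM of 5 or more and leaving out gate, sex-linked, mitochondrial, ribosomal and blood genes, the 12 with the largest gap on each side; members of the gene lists serve as examples. Endothelial cells had at least 3 Cldn5 and 1 Pecam1 UMIs, oligodendrocytes at least 2 Mog, microglia at least 2 Csf1r and 1 Cx3cr1 and neuroblasts at least 3 Dcx, all with no Slc1a3 UMI. No doublet caller was run; cells with 2 UMIs of another cell type's gene were left out as an alternative. Alternatives also covered DESeq2 1.42.0, no TMM, no filter, other Prm1 and Slc1a3 thresholds, at most 5% mitochondrial UMIs, thinning to 4000 UMIs, equal numbers of cells, Thbs4- and Agt-positive cells, all 7 libraries, libraries of the DKO's Cell Ranger version and each cKO library left out; the Cell Ranger version as a term of the fit, cKO library 2 alone and removal of shared barcodes were added after the data were seen. Some genes are not reported here.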

Additional observations from a re-analysis of the deposited data

How the results depend on the processing

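No paired analysis was possible because the DKO group is 1 library and shares only 1 replicate number with the cKO group; the Cell Ranger version was entered as a term instead, after the data were seen and with 1 residual degree of freedom. The number of genes called by edgeR, 5 in all, was 16 with Prm1 at least 2, 18 with Prm1 at least 5, 29 in Thbs4-positive cells, 2 with all 7 libraries in the fit, 9 at no more than 5% mitochondrial UMIs, 11 with cells thinned to 4000 UMIs, 8 with equal numbers of cells, 30 without TMM, 1 with the Cell Ranger version as a term, 66 without the filter on low counts and 3 without possible doublets. With each cKO library left out it ranged from 24 to 144. The cause of these shifts was not tested. Calls of Vcam1 are no independent evidence, since its loss was the reason for the comparison. Vcam1 was called under each of these settings but Thbs4-positive cells, while Grin2c was not called in Agt-positive, Thbs4-negative or Thbs4-positive cells, with Prm1 at least 2 or 5, with all 7 libraries, at no more than 5% mitochondrial UMIs, by DESeq2 or without possible doublets. With the Cell Ranger version as a term none of the 4 genes besides Vcam1 was called. Gm26802 lost its call under 8 settings, and Tifa under 5 of the settings in which it was tested. The 160 genes at least 1 log2 unit outside the cKO range, of 10695 tested, became 98 of 3913 in Thbs4-positive cells and 508 of about 13270 with all 7 libraries. They became 84 of 9324 at no more than 5% mitochondrial UMIs and 377 of about 17820 without the filter. Against cKO library 2 alone they were 565 of about 10050 (317 higher and 248 lower). Within the Cell Ranger version of the DKO library they were 693 of about 11160, and with a cKO library left out 241 to 280. The calls given above also rest on different numbers of genes tested, such as 3913 in Thbs4-positive cells and 6176 with cells thinned to 4000 UMIs. The Vcam1 log2 fold change of -3.25 became -4.82 in Agt-positive, Thbs4-negative cells, -2.21 with Prm1 at least 2, -1.20 in Thbs4-positive cells, -2.97 against cKO library 2 alone and -3.05 without possible doublets, and ran from -3.34 to -3.17 with a cKO library left out. In Thbs4-positive cells, of which there were 6 to 12 per library, the log2 fold changes of Btg2 (-0.064), Jun (-0.27) and Otud1 (-1.51) and the medians of the OPC (-0.94) and immediate early (-0.38) lists turned negative. Values close to 0 also changed sign: Egfr (-0.35 to 0.019 with a cKO library left out, 0.036 with Prm1 at least 5 and 0.0028 without possible doublets), Gria1 (0.048) and Rgs17 (-0.14) at no more than 5% mitochondrial UMIs, Prdm16 (-0.018 in Agt-positive, Thbs4-negative cells, -0.090 with Prm1 at least 2, -0.064 within the Cell Ranger version and -0.068 with it as a term), Ptx3 (0.21 against cKO library 2 alone) and the quiescent NSC median (0.012 in Agt-positive, Thbs4-negative cells, 0.014 with Prm1 at least 2, 0.0037 with equal numbers of cells, 0.012 within the Cell Ranger version and 0.010 with it as a term). Of the values of named genes other than Vcam1 under these settings, 588 kept their direction and side of the threshold, 95 newly passed it, 23 no longer did and 13 changed sign. With 75 DKO cells in 1 library, no spread between DKO animals can be given.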
